A study of Mus musculus with 6 samples.

Results

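The 10 genes described here encode proteins that vessel walls use to catch leukocytes, to join endothelial cells and to carry water and signals: Sele, Selp, Vcam1, Icam1, Icam2, Pecam1, Cdh5, Nos3, Aqp1 and Eng. They were picked by symbol out of 23337 genes counted, with their difference between knockout and wild type already known, so their values in that contrast are a description without a test. All 10 passed the filter on low counts, as did 13925 genes altogether. RNA came from basal cells of the mammary epithelium of mice, which were not meant to hold endothelium: after collagenase digestion, a flow cytometry gate for live cells kept those low for CD24 and high for CD49f and discarded those positive for CD45, a leukocyte protein, or for CD31, the product of Pecam1. The 2 wild-type libraries (genotype Vimwt/wt) and the 4 knockout libraries (Vimtm1Cba/tm1Cba, homozygous for a disrupted vimentin gene) came from mice of 15 weeks on a 129/Sv X C57BL/6 background. Each library pooled cells of 2 to 3 mice, taken without culture (passage p0), and the work was done as 2 independent experiments. Experiment 1 held wild type 1 and knockout 1 and 2, and experiment 2 held wild type 2 and knockout 3 and 4, as told from the date part of the file names. The vimentin allele is constitutive, so endothelial cells of the knockout mice carry it as well as basal cells.

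Leukocytes leave the blood in steps. E-selectin and P-selectin on endothelium slow the passing cells by binding sugar chains, ICAM-1, ICAM-2 and VCAM-1 then hold leukocyte integrins, and PECAM-1 and VE-cadherin sit in the junctions through which the cells pass. P-selectin is stored in endothelial granules and in platelets, while E-selectin is made on demand after inflammatory signals such as TNF and IL-1 through NF-kB, which also drives Vcam1 and Icam1. Sele, Selp, Cdh5 and Nos3 are near to restricted to endothelium (and, for Selp, platelets), whereas Icam1, Vcam1 and Eng are also made by epithelial or mesenchymal cells. Venules, and above all those of inflamed tissue, are the usual site of both selectins.

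Promoters of 4 members are shown because 3 of these genes, Sele, Selp and Aqp1, had like profiles over the libraries and Icam1 did not. Each is the stretch from 250 bases before to 50 after the transcription start in RefSeq, on build GRCm38.p6, and each lies on the plus strand. Sele is read from chr1:164047984-164048283, Selp from chr1:164115014-164115313, Aqp1 from chr6:55336049-55336348 and Icam1 from chr9:21015690-21015989. Capitals mark matches to the TATA box letters TATAAA or to AGGAAG, a form of the core bound by ETS factors (CTTCCT where the match is on the minus strand).
Sele: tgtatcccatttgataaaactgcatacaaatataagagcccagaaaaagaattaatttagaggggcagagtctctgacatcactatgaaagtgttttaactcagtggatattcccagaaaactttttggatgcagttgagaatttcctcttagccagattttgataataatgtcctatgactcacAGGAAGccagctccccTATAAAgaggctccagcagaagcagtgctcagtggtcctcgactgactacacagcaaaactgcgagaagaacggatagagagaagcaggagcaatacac
Selp: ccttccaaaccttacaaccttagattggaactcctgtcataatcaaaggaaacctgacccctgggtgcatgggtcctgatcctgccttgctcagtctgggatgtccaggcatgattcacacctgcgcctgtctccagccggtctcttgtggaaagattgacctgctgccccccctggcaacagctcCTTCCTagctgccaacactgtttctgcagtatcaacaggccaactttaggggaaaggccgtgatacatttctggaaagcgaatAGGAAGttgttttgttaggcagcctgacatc
Aqp1: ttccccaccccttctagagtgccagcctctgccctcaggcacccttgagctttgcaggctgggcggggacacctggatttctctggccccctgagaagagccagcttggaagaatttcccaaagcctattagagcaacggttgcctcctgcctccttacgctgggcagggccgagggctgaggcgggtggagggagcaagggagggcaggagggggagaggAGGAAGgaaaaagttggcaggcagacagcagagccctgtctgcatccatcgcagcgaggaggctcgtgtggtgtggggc
Icam1: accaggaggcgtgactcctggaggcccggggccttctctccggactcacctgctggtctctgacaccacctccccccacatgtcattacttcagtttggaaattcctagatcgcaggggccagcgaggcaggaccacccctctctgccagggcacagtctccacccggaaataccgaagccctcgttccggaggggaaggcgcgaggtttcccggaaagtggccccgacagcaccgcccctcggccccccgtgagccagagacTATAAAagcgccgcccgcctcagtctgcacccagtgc
The RefSeq table held promoters of 5 of the 10 members, the 4 above and Eng. TATAAA was found in Sele, first base at -49 from the start, and in Icam1 at 14, against 13.6% of the 32851 promoters in the table. Positions are from the RefSeq start, which for Icam1 lies upstream of the first counted exon base (21015960). AGGAAG was found in Sele (-65), in Selp (20 on the plus and -64 on the minus strand), in Aqp1 (-29) and in Eng (-6, and -52 on the minus strand), against 35.4% of promoters. The NF-kB consensus was found in 8.46% of promoters and in none of these 5 windows. Variants outside that consensus were not looked for. A window without a match may still hold an NF-kB site. Both strands were searched, the motifs share no overlapping match in these windows, and a match is a description of the letters, not a site.

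Total counts ran from 25347967 to 31200622 per library, and counting error is largest for Icam2 and Nos3, with at most 188 counts, and in the knockout libraries for Cdh5 (80 to 179 counts) and Pecam1 (110 to 193). Vim itself stood at 46.1% of its wild-type level in the knockout, and counts were not split by exon, so this checks the labels only in part. Basal genes summed to between 5926 and 6993 FPKM in the 6 libraries. CPM is a level scaled for library size, used here to compare libraries for 1 gene, and FPKM is scaled for exon length too, so that genes can be compared with each other. Beside the members, 25 further genes typical of all vessels were listed, of which 23 were tested. The summed level of this list without Cav1, which basal cells also make, was 72.3 FPKM in wild type 1 and 33.8 in wild type 2, and 20.2 to 25.8 in the knockout libraries. Wild type 1 was the library with the highest sum. Cav1 itself was between 55.3 and 87.9 FPKM. Pecam1 and Cdh5, the usual markers of endothelium, had between 80 and 1073 counts in each of the 6 libraries.

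Sele encodes E-selectin and lies on chromosome 1 at 164048234 to 164057677 (mm10, plus strand, 14 exons). Its level was 34.9 and 29.0 CPM in wild type 1 and 2 and 7.95, 12.0, 10.4 and 10.7 CPM in knockout 1 to 4. The groups did not overlap, and the wild-type libraries were within 1.21 times of each other, the closest wild-type pair among the 7 members whose groups did not overlap. The knockout mean of 10.3 ± 1.68 CPM (SD, n = 4) was 32.1% of the wild-type mean of 32.0 ± 4.22 CPM (SD, n = 2). Within experiment 1 the log2 difference of knockout minus wild type was -1.83, and within experiment 2 it was -1.45, the closest agreement between experiments among the 6 members more than 1 log2 unit lower. In bulk RNA such as this, fewer cells of a type and less RNA per cell cannot be told apart.

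Selp encodes P-selectin and lies on the same strand of chromosome 1 at 164115264 to 164150026, with 57587 bases between the end of Sele and its start. It was at 206 and 94.2 CPM in the wild-type libraries and at 28.4, 55.9, 44.8 and 50.6 CPM in the knockout libraries. The groups did not overlap, but wild type 1 was 2.19 times wild type 2. The knockout mean of 44.9 ± 11.9 CPM was 29.9% of the wild-type mean of 150 ± 79.04 CPM, and the log2 difference was -2.37 in experiment 1 and -0.98 in experiment 2. Per length, Selp (mean over 6 libraries 23.3 FPKM) stood above Sele (6.01 FPKM). Of the 10 annotated genes within 200 kb of Sele, 7 were tested. The 5 of these other than the selectins (Kifap3, Scyl3, BC055324, 2810422O20Rik and Slc19a2) had overlapping groups, and Gm16548 and the coagulation factor gene F5 had at most 7 counts. Platelets are the other store of P-selectin, and of 9 platelet genes 6 had at most 3 counts in any library. Gp9 and Gp6 were at 0 in all 6, Pf4 had at most 2 counts and Ppbp at most 3, while Itga2b, at 405 to 1035 counts, was the one abundant gene of the list.

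Selectins bind sugars that other genes make or carry. Of 17 listed ligands, carriers and enzymes, 12 were tested. Per length the most abundant were Cd44 (211 FPKM), a carrier of E-selectin ligands, Glg1 (25.2 FPKM), which encodes the E-selectin ligand ESL-1, and B4galt1 (17.9 FPKM), a galactosyltransferase. Selplg, which encodes the P-selectin ligand PSGL-1 of leukocytes, had 1 to 12 counts and was not tested. Counts of Ptprc, the CD45 gene, were 15 and 0 in the wild-type and 4, 1, 0 and 2 in the knockout libraries. Ptprc does not stand for its list of 12 leukocyte genes, of which 7 were tested. The list summed to 110 to 131 FPKM in the wild-type and 84.9 to 123 FPKM in the knockout libraries. Which cells gave this RNA was not tested.

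The 3 ligands of leukocyte integrins did not share the pattern of the selectins. Icam1 (chromosome 9, 21015960 to 21028796, plus strand) encodes ICAM-1, the ligand of LFA-1 and Mac-1. It was at 526 and 654 CPM in wild type and at 624, 726, 1032 and 862 CPM in knockout. The groups overlapped in knockout 1, and the knockout mean was 137% of the wild-type mean. Vcam1 (chromosome 3, 116110020 to 116129688, minus strand) encodes VCAM-1, the ligand of the integrin VLA-4. It was at 438 and 678 CPM in wild type and at 398, 515, 810 and 896 CPM in knockout. Its high and low libraries divided by experiment and not by genotype, with the lowest value of experiment 2 (678 CPM) above the highest of experiment 1 (515 CPM). Icam2 (chromosome 11, 106377656 to 106382641, minus strand) encodes ICAM-2, a constitutive ligand on endothelium and platelets. Its counts were 59 and 58 in wild type, then 49, 22, 38 and 39 in knockout, which is 1.79 and 2.23 CPM against 1.54, 0.869, 1.28 and 1.53 CPM. The groups did not overlap, but in contrast to the selectins its higher wild-type library was wild type 2, and knockout 1 was close to wild type 1. Of 8 listed integrin genes whose products bind these ligands, 6 were tested. The most abundant per length were Itgb1 (378 FPKM), the beta-1 chain common to many matrix receptors, Itga9 (13.4 FPKM) and the leukocyte beta-2 chain Itgb2 (2.29 FPKM).

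Pecam1 and Cdh5 mark endothelium itself. Pecam1 (chromosome 11, 106654218 to 106715281, minus strand), the gene of the CD31 used for exclusion, was at 30.4 and 12.1 CPM in wild type and at 3.46, 7.35, 6.48 and 4.41 CPM in knockout. Cdh5 (chromosome 8, 104101625 to 104144502, plus strand), the gene of VE-cadherin, was at 32.6 and 11.3 CPM in wild type and at 2.52, 5.41, 6.01 and 4.05 CPM in knockout. For both genes wild type 1 was far above every other library, at 2.504 times wild type 2 for Pecam1 and 2.88 times for Cdh5, and the groups did not overlap. The knockout means were 25.5% and 20.5% of the wild-type means. Within experiment 1 the log2 differences were -2.57 for Pecam1 and -3.12 for Cdh5, and within experiment 2 they were -1.17 and -1.18. Of 17 other genes of endothelial junctions and immunoglobulin adhesion, 16 were tested. Of these, 5 had all knockout libraries below both wild-type libraries, where 8.57% of all tested genes did, and 1 had all above (7.6% of genes). The most abundant per length were genes that epithelium also uses: Ctnnb1 (beta-catenin, 206 FPKM), Jup (plakoglobin, 181 FPKM) and Mcam (CD146, 136 FPKM).

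Nos3 (chromosome 5, 24364819 to 24384474, plus strand) encodes the endothelial nitric oxide synthase. It had the lowest level of the 10 genes per length. Wild type gave 188 and 91 counts, and knockout gave 16, 35, 34 and 37. These are 5.72 and 3.50 CPM against 0.503, 1.38, 1.14 and 1.46 CPM, and the groups did not overlap. Aqp1 (chromosome 6, 55336299 to 55348555, plus strand) encodes the water channel of capillary and venular endothelium, which red cells also hold. Its level was 74.4 and 28.3 CPM in wild type and 9.87, 19.2, 15.3 and 15.0 CPM in knockout, again without overlap. Wild type 1 was 2.63 times wild type 2 for Aqp1 and 1.63 times for Nos3. Knockout means were 29.0% of wild type for Aqp1 and 24.3% for Nos3. Of the erythroid list no gene passed the filter, Hba-a1 was at 0 in all 6 libraries and the listed genes summed to at most 0.0794 FPKM. Of 11 listed aquaporin genes 3 were tested, and the epithelial Aqp3 (231 FPKM) was far above Aqp1 (9.79 FPKM) per length.

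Eng (chromosome 2, 32646595 to 32682669, plus strand) encodes endoglin, a co-receptor for BMP9 and TGF-beta that mesenchymal cells share with endothelium. It was at 43.3 and 24.7 CPM in wild type and at 30.3, 31.3, 31.3 and 28.7 CPM in knockout. The 4 knockout libraries lay between the 2 wild-type libraries, with a mean of 30.4 ± 1.23 CPM, 89.3% of the wild-type mean. The log2 difference was -0.49 in experiment 1 and 0.28 in experiment 2. Gdf2, which encodes the ligand BMP9, had 0 to 4 counts and Bmp10 had none, and of 16 genes of the endoglin receptor complex and its signalling 14 were tested.

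**Figure D1:**
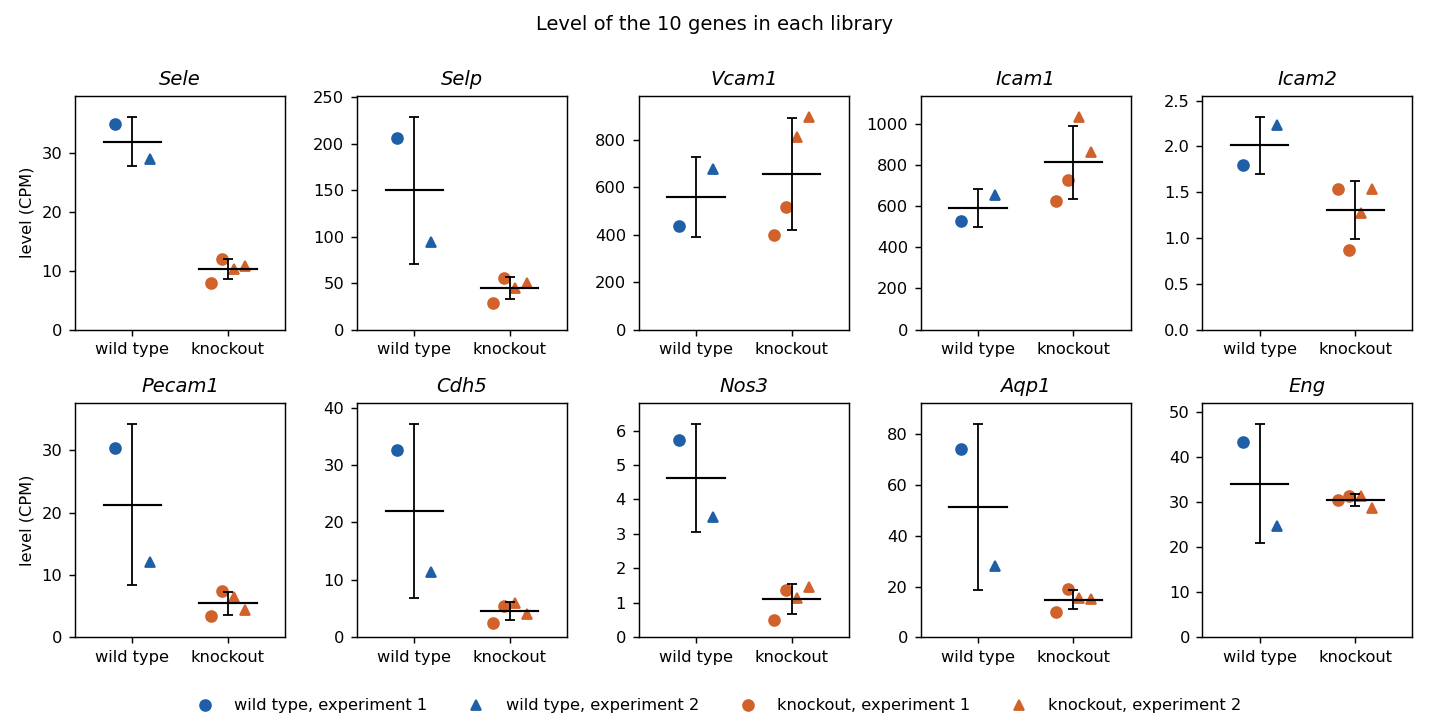
Level in CPM (vertical axis from 0, a separate scale in each panel) of the 10 genes in the 2 wild-type and 4 knockout libraries. Points are libraries, circles experiment 1 and triangles experiment 2, and black bars give the mean and SD. In 7 panels all knockout points lie below both wild-type points, while Vcam1, Icam1 and Eng overlap.

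Across the set, 7 of the 10 genes (Sele, Selp, Icam2, Pecam1, Cdh5, Nos3 and Aqp1) had every knockout library below both wild-type libraries, and 8.57% of all 13925 tested genes did so. None had every knockout library above both, as 7.6% of genes had. The median log2 fold change of knockout over wild type was -1.69 over the 10 genes, with 8 below 0 and 2 above, against -0.01 over all tested genes. By edgeR's quasi-likelihood test Sele was the only member with an adjusted p under 0.05, and 0.079% of all genes were called (0.0215% lower). With the experiment as a block edgeR called Sele and Nos3 (1.56% of all genes), and DESeq2 called 6 members, Sele, Selp, Pecam1, Cdh5, Nos3 and Aqp1 (1.88% of all genes). The members were chosen on this contrast, so nothing is read from these counts. Wild type 1 weighed on the size of the difference. Without it the log2 fold change was -1.05 for Selp, -1.14 for Pecam1, -1.31 for Cdh5 and -0.91 for Aqp1, compared with -1.74, -1.97, -2.29 and -1.79 with all libraries. For Sele it was between -1.77 and -1.48 whichever library was left out, but its edgeR call was kept in 1 of the 6 such fits, that without knockout 1 (adjusted p = 0.0365). The adjusted p was 0.208 without wild type 1, 0.0501 without wild type 2 and 0.0743, 0.111 and 0.0907 without knockout 2, 3 and 4. That all 4 knockout libraries were below wild type 2 for the same 7 genes follows from how these 7 were counted. Being below wild type 2 alone held for 25.1% of all genes. Of the 23 tested genes of the separate endothelial list, 22 had a negative log2 fold change and 16 had all knockout libraries below both wild-type libraries, with a median of -1.49. Whether the share of endothelial RNA in a sort had a part in the difference of any member was not tested.

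Per length the order of the levels, as means over the 6 libraries, was Icam1 (290.5 FPKM), Vcam1 (183 FPKM), Selp (23.3), Aqp1 (9.79), Eng (8.85), Sele (6.01), Pecam1 (3.24), Cdh5 (2.59), Icam2 (1.35) and Nos3 (0.554). The lowest value of Vcam1 (117 FPKM) was above the highest of Selp (59.9 FPKM), so Icam1 and Vcam1 stood apart from the other 8. Icam1 (207 to 407 FPKM) and Vcam1 (117 to 264 FPKM) overlapped in their ranges, as did each other pair of neighbours in this order except Vcam1 and Selp. Icam1 was above Vcam1 in each of the 6 libraries, and Selp was above Sele in each. The order differed between the genotypes further down. By the wild-type means Sele (10.98 FPKM) was above Eng (9.53), and by the knockout means Eng (8.51) was above Aqp1 (5.39) and Icam2 (1.143) above Cdh5 (1.129).

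The ratio of each gene to Pecam1 sets it against an endothelial reference in the same library. These ratios compare levels per length, and their 95% exact binomial intervals take in counting error alone, as there were no molecular identifiers. Selp was the steadiest selectin, at 6.52 and 7.47 times Pecam1 in wild type and 7.90, 7.31, 6.64 and 11.03 times in knockout. Its groups overlapped, with means of 6.995 ± 0.668 and 8.22 ± 1.94 (SD). Aqp1 was at 2.93 and 2.79 times Pecam1 in wild type and 3.42, 3.13, 2.84 and 4.08 times in knockout, with the highest library 1.46 times the lowest, the smallest spread among the 9 ratios. Cdh5 was at 0.891 and 0.774 times Pecam1 in wild type and at 0.603, 0.611, 0.769 and 0.763 times in knockout. Its knockout values were all below both wild-type values, as for 0.0359% of genes. Since Pecam1 itself was lower in the knockout, only genes that fell further could be so, and Cdh5 was chosen with its difference known. The margin was smaller than the counting interval of a single library (0.658 to 0.910 in wild type 2 and 0.624 to 0.947 in knockout 3). Nos3 was at 0.151 and 0.232 times Pecam1 in wild type and 0.117, 0.151, 0.141 and 0.265 times in knockout, and the groups overlapped.

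Sele had a ratio to Pecam1 of 1.31 in wild type 1, 2.71 in wild type 2 and 2.61, 1.85, 1.82 and 2.77 in the knockout libraries. Knockout 1, 2 and 3 lay between the 2 wild-type libraries and knockout 4 just above them, so the ratio did not separate the genotypes. By counting error alone wild type 1 (1.199 to 1.42) was below the other 5 libraries, and wild type 2 (2.38 to 3.10) and knockout 4 (2.21 to 3.48) were above knockout 3 (1.51 to 2.19). These intervals do not take in the spread between pools of mice, and the position of wild type 1 was not tested against that spread. The ratio of Sele to Cdh5 was likewise lowest in wild type 1, at 1.47, and between 2.36 and 4.33 in the other 5 libraries.

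The other 4 members had ratios to Pecam1 that varied more. Eng was at 1.32 and 1.89 times Pecam1 in wild type and at 8.12, 3.93, 4.47 and 6.02 times in knockout. Icam1 was at 22.6 and 70.3 times Pecam1 in wild type and at 235, 129, 207 and 255 times in knockout. Vcam1 was at 14.0 and 54.4 times Pecam1 in wild type and at 112, 68.2, 122 and 198 times in knockout. For these 3 genes every knockout ratio was above both wild-type ratios, which was also so for 88.8% of all tested genes, since Pecam1 itself was lower. Icam2 was at 0.171 and 0.533 times Pecam1 in wild type and 1.29, 0.342, 0.570 and 1.01 times in knockout, and its groups overlapped.

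**Figure D2:**
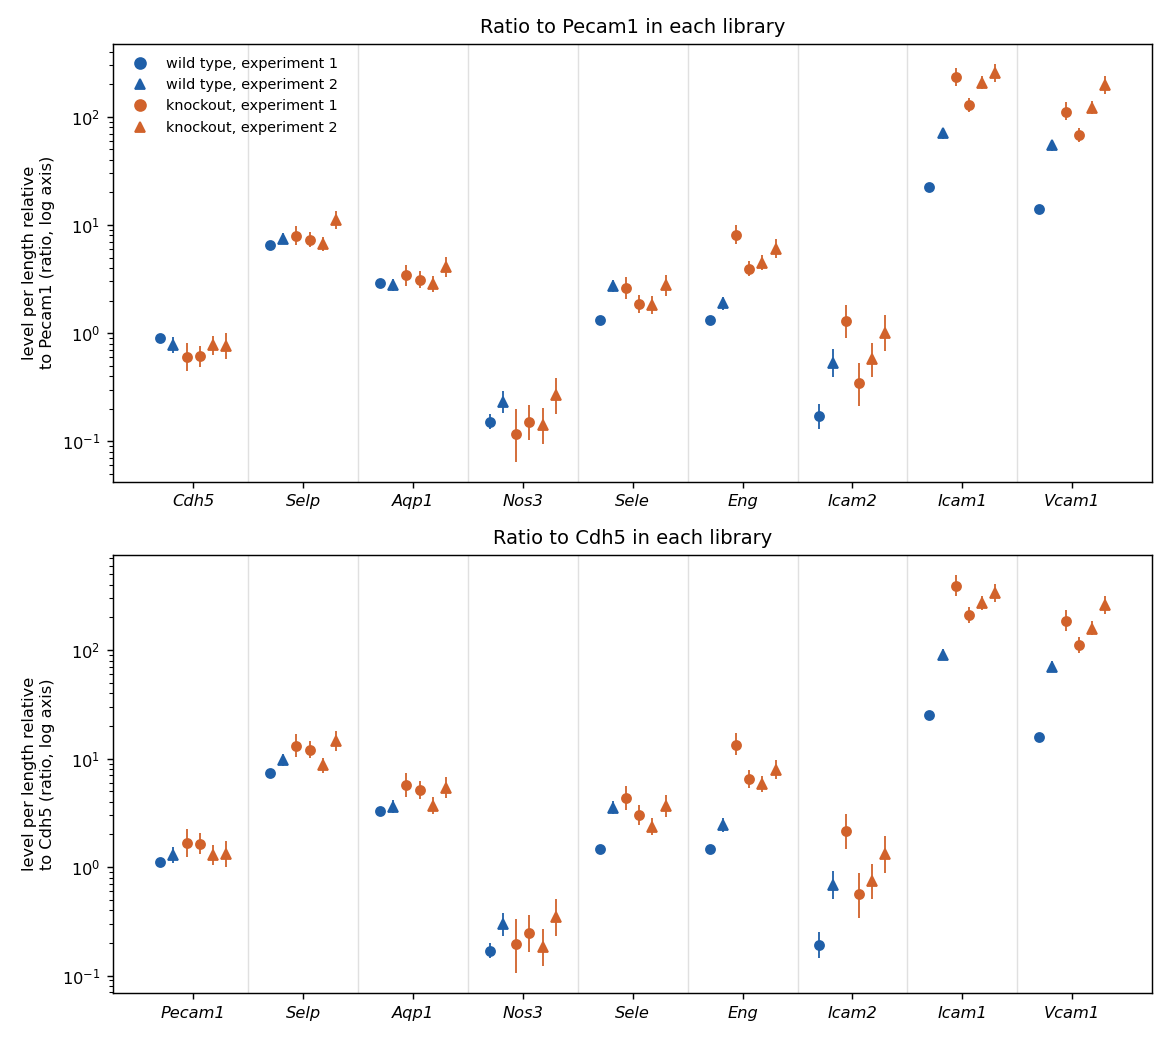
Level per length of each gene relative to Pecam1 (upper panel) and to Cdh5 (lower panel) in each of the 6 libraries, on log axes, with 95% exact binomial intervals for counting error. Selp, Aqp1, Nos3 and the other junction gene stay within 3 times from the lowest to the highest library in the upper panel, as does Sele, whose lowest point is wild type 1. Eng, Icam1 and Vcam1 are higher in every knockout library.

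Of the 9 ratios to Pecam1, 5 (Sele, Selp, Cdh5, Nos3 and Aqp1) had a highest library under 3 times the lowest, and 0.503% of all genes did. The members were chosen with their knockout difference known, and genes that fall as Pecam1 does keep a steady ratio. The counts are thus a description. The background of all genes also rests on wild type 1. A range over fewer libraries cannot widen, so the same 5 members had to meet the limit again. They did so beside 16.3% of all genes without wild type 1 and beside 0.654% without wild type 2. Against Cdh5 in place of Pecam1, Sele, Selp, Pecam1, Nos3 and Aqp1 were within this limit, beside 0.309% of genes, or 3.5% without wild type 1. The ratio to Cdh5 was above both wild-type values in every knockout library for Aqp1 (3.29 and 3.61 against 5.67, 5.12, 3.69 and 5.36) and not for Selp (7.32 and 9.65 against 13.1, 12.0, 8.64 and 14.5). For 92.4% of all genes the ratio to Cdh5 was higher in this way. The choice of reference decided the direction for some genes. With the summed endothelial list without Cav1, a reference that was not planned, the knockout mean ratio was set over the wild-type mean ratio. Its log2 was -0.56 for Sele, -0.50 for Selp and -0.51 for Aqp1, where it was 0.17, 0.23 and 0.23 against Pecam1. Pecam1 (-0.72), Nos3 (-0.88) and Cdh5 (-1.01) were lower still against this list. Icam2 (0.38), Eng (1.03), Vcam1 (1.16) and Icam1 (1.43) were above 0. Without wild type 2 the value for Sele against Pecam1 was 0.79, and without wild type 1 it was -0.26.

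Likeness over all 6 libraries was measured as the root-mean-square difference of log2 CPM after each gene was centred on its own mean. Of 13923 other genes, the 10 closest to the mean profile of Pecam1 and Cdh5 were Tie1 (0.213), Parvb (0.221), Adcy4 (0.223), Ptprb (0.225), Aqp1 (0.232), Emcn (0.251), Fabp4 (0.265), Selp (0.278), Srgn (0.282) and Gbp4 (0.283). Tie1 and Ptprb encode endothelial receptors and Emcn the surface sialomucin endomucin. Nos3 ranked 20 and Sele 29, Eng ranked 1395 and Icam2 2057, and Vcam1 (11846) and Icam1 (12241) were far down the order. The profile of Sele itself was closest to those of Cyyr1 (0.151), Calcrl (0.190), Cd46 (0.210), Slc22a13b (0.210) and Dnahc8 (0.226). Cd46 had 2 to 13 counts per library and Slc22a13b 3 to 21, so their places rest on few counts. Calcrl, a receptor subunit for adrenomedullin, is a known endothelial gene, and the others were not sorted by cell type. Selp ranked 12 in that order, Aqp1 27, Nos3 36, Pecam1 45 and Cdh5 138. These distances use the same 6 libraries that carry the knockout contrast and are a description.

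**Figure D3:**
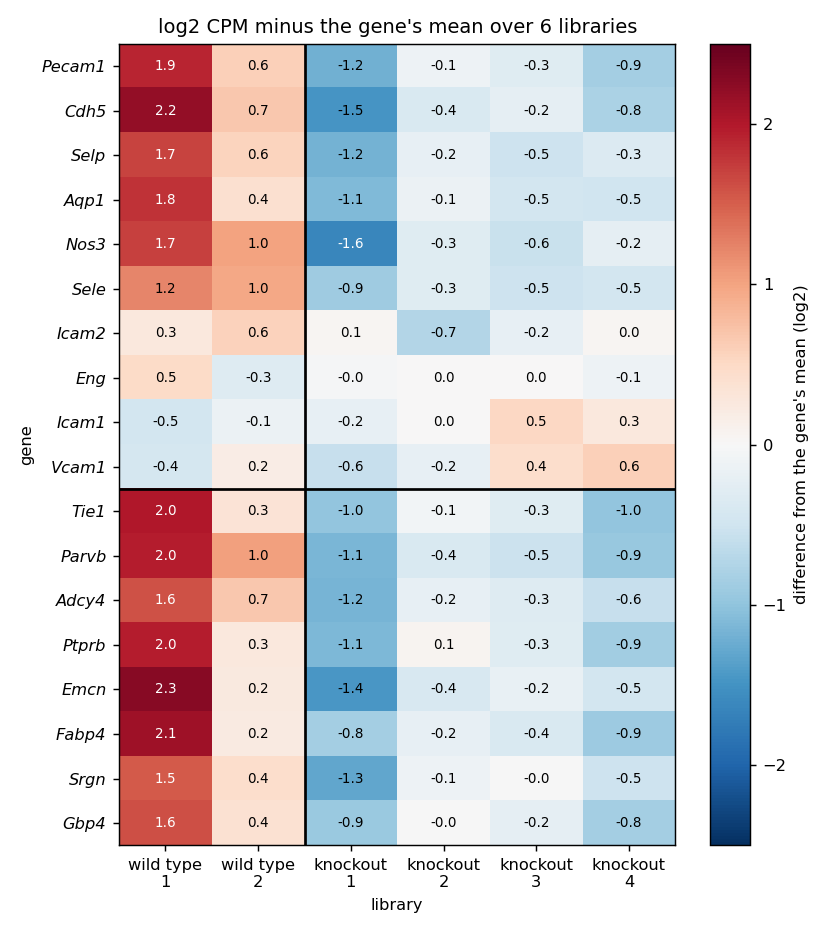
Difference of log2 CPM from each gene's mean over the 6 libraries (columns), in red above and blue below the mean, for the 10 genes (above the horizontal line) and the other 8 of the 10 genes closest to Pecam1 and Cdh5 (below it). Wild type 1 is the highest library for 7 of the 10 genes and for all 8 genes below the line, whereas Icam1 is highest in knockout 3, Vcam1 in knockout 4 and Icam2 in wild type 2.

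The difference between the 2 experiments was not used to choose the 10 genes and could be tested for them. The model also held genotype and left 3 residual degrees of freedom. The comparison and the gene lists were chosen with earlier results of these data known, so calls of list genes are a description. By edgeR's quasi-likelihood test with Benjamini-Hochberg adjustment, 1 of the 10 genes differed. Vcam1 rose from 451 ± 59.5 CPM (SD, n = 3) in experiment 1 to 795 ± 110 CPM (SD, n = 3) in experiment 2, which is 0.81 higher in log2 terms (SE 0.13, adjusted p = 0.0077). In this contrast 6.43% of all genes were called (3.39% higher). All 3 libraries of experiment 2 were above all 3 of experiment 1. The call was kept without knockout 1, 2 or 3 and lost without wild type 1, wild type 2 or knockout 4 (adjusted p = 0.0679, 0.0643 and 0.0572), with a log2 fold change between 0.68 and 0.90 throughout. Icam1 was 0.43 higher on the log2 scale (SE 0.12) and missed the threshold with adjusted p = 0.0554, but it was called by DESeq2 (adjusted p = 0.00495, where 10.6% of genes were called) and without the low-count filter (0.0206, with 7.5% called). Neither selectin was called. For Sele the estimate was -0.04 (SE 0.17, adjusted p = 0.918), for Selp -0.26 (SE 0.39, adjusted p = 0.745). For Pecam1 it was -0.46 (SE 0.40, adjusted p = 0.540), and the remaining 5 genes were between -0.44 and 0.25, with adjusted p of 0.291 or more. Leaving out knockout 1 brought Pecam1 to -0.85 (adjusted p = 0.0483), where 13.4% of genes were called.

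Genes that switch on with Vcam1, Icam1 and Sele in inflamed endothelium were listed as 23 NF-kB pathway and target genes, all tested. In experiment 2, 9 were called higher and 0 lower, where 3.39% and 3.04% of all genes were. Of the 23, 21 were above 0, as were 6599 of 13925 genes. The median log2 fold change of the list was 0.43, against -0.02 over all genes. The subunit genes Nfkb1 (0.71, SE 0.11), Nfkb2 (0.61, SE 0.10) and Relb (0.58, SE 0.09), the inhibitor gene Nfkbie (0.92, SE 0.13) and the chemokine gene Cxcl2 (1.36, SE 0.11) rose, with adjusted p from 6.89e-04 to 0.0095. The others that rose were Tnfaip3, Birc3, Cxcl1 and Sod2. Without wild type 1 or wild type 2 only 1 gene of the list was called each time (0.269% and 0.292% of all genes), and without knockout 4 there were 3 (0.865%), while the median was 0.52 in each case. Sele, whose gene answers to the same factor in endothelium, stood at -0.04 in this contrast. For knockout against wild type 19 of the 23 genes were above 0, with a median of 0.38, where 6626 of 13925 genes were above 0. By edgeR 0 of the 23 were called for genotype (smallest adjusted p = 0.269), beside 0.079% of all genes. An unadjusted p under 0.05 was reached by 3 of the 23 and by 1193 of 13925 genes. By limma-voom 0 were called (0.0718% of all genes), by DESeq2 1 (1.88%) and by edgeR with the experiment as a block 6 (1.56%).

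**Figure D4:**
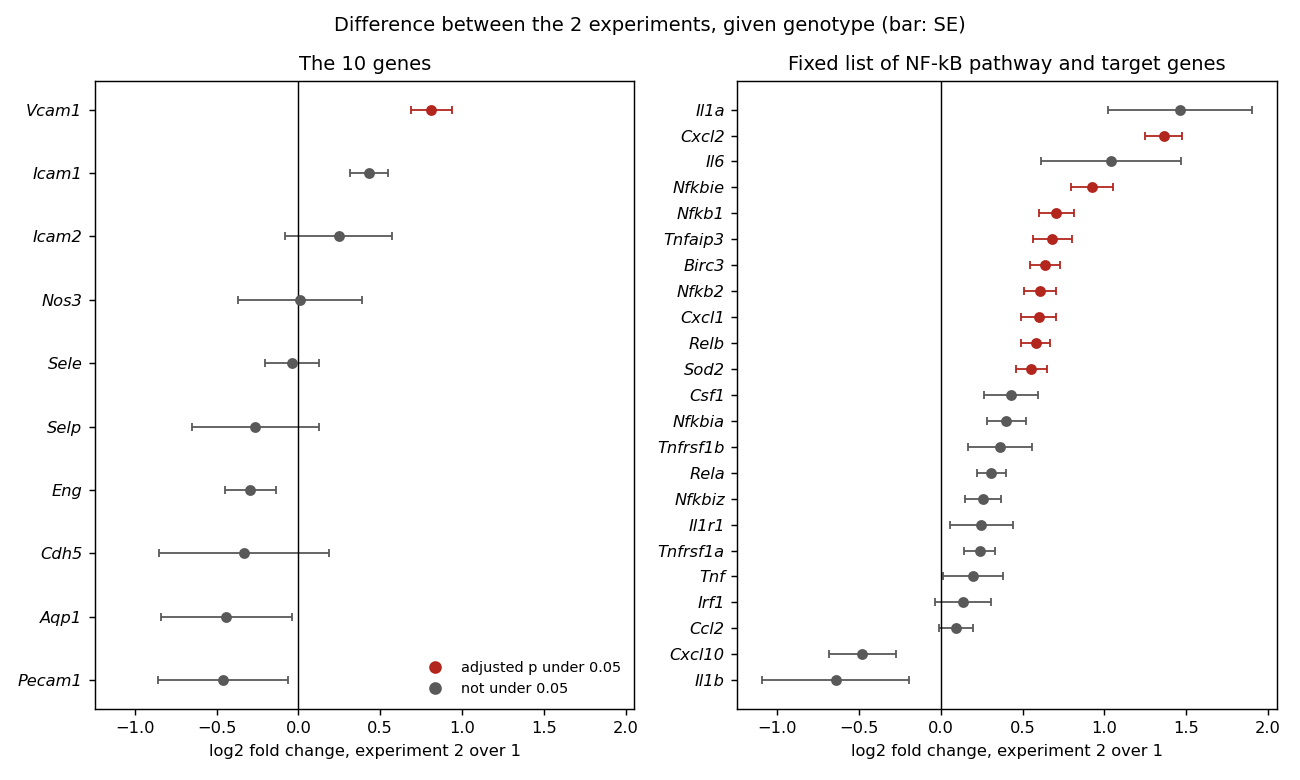
Log2 fold change of experiment 2 over experiment 1 (horizontal axis, with SE bars) for the 10 genes on the left and the 23 NF-kB pathway and target genes on the right, with edgeR calls at an adjusted p under 0.05 in red. Vcam1 is the 1 red point on the left, at 0.81, and 9 points are red on the right, all above 0.

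Some partners of the members also differed between the experiments. In the 6 fits that leave out a library, the share of all genes called ran from 0.269% to 13.4%. Cd44 rose in experiment 2 (log2 fold change 0.64, SE 0.12, adjusted p = 0.0133) and was called in 3 of the 6 fits that leave out a library. The nectin-like receptor gene Pvr of the junction list rose (0.44, SE 0.09, adjusted p = 0.0179), called in 2 of 6 such fits. Aqp3 rose (1.15, SE 0.12, adjusted p = 0.00182) and was called in 6 of 6. Aqp1, of the same family, stood at -0.44 (SE 0.40, adjusted p = 0.572). In the endoglin list 4 of 14 tested genes fell, where 3.04% of all genes were called lower. These were the BMP targets Id1 (-0.76, SE 0.12, adjusted p = 0.0076), Id2 (-0.74, SE 0.12, 0.0109) and Id3 (-0.65, SE 0.15, 0.0426) and the transducer Smad9 (-1.71, SE 0.38, 0.0294). Each of these 4 was called in 2 or 3 of the 6 fits. Eng itself stood at -0.29 (SE 0.16, adjusted p = 0.291). Among nitric oxide genes Prkg1 rose (0.40, SE 0.10, adjusted p = 0.0432) and Nosip, which binds the synthase, fell (-0.50, SE 0.12, adjusted p = 0.0404), called in 2 and 1 of the 6 fits, while Nos3 stood at 0.01 (SE 0.38, adjusted p = 0.993). The smallest adjusted p of the 6 tested integrin genes was 0.167.

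Whether the knockout difference of a gene was itself different in the 2 experiments was tested with an interaction term, which leaves 2 residual degrees of freedom. By edgeR 0 of the 10 genes and 0 of 13925 genes (0%) passed, 586 genes and 4 members (Eng, Cdh5, Aqp1 and Selp) had an unadjusted p under 0.05, and DESeq2 also called 0 members. The estimates of 9 of the 10 genes were positive, as were those of 6995 of the 13925 genes. The largest were those of Cdh5 (1.89, SE 0.61), Aqp1 (1.47, SE 0.49), Pecam1 (1.35, SE 0.61) and Selp (1.31, SE 0.50), each with an adjusted p of 0.998. For these 4 the knockout difference was less negative in experiment 2. For Sele it was 0.36 (SE 0.36, adjusted p = 0.998), and the difference between Sele and the other genes was not tested. Without knockout 2, which leaves 1 residual degree of freedom, Selp, Pecam1, Cdh5, Aqp1 and Eng were called beside 2.67% of all genes, and without knockout 1 Selp and Aqp1 were called beside 1.48%. Each experiment held 1 wild-type library, so a difference between experiments in the knockout effect and a wild-type library that stands apart cannot be told apart.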

How the data were processed

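Messenger RNA of 6 libraries (2 wild type, 4 knockout) was sequenced after stranded library preparation, per the labels. The deposited values are raw counts per gene. The authors counted with featureCounts 1.5.1 over mm10 exons with strand option 2, per the file headers. The submitters' processing notes name bcl2fastq 2.17, STAR 2.5.2b and Subread 1.5.1. The exon length of each gene, deposited in the same files, was used for FPKM.

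Counts were scaled by TMM and tested over 13925 genes kept by filterByExpr (9412 set aside) with edgeR 4.0.16 in R 4.3.3 (glmQLFit, robust, and glmQLFTest, 2-sided, Benjamini-Hochberg adjusted p under 0.05). The models were genotype alone, genotype with experiment, and their interaction. Log2 CPM for profiles used a prior count of 2. DESeq2 1.42.0, limma-voom (limma 3.58.1), other size factors, filters and blocks, and each library left out in turn were the alternatives. The scripts were tested on simulated data.

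The labels speak of 2 independent experiments, and a day code in the file names assigns the libraries. Deviations from group means correlated across genes within an experiment (r from 0.251 to 0.414) and not across experiments (-0.414 to -0.251). With 2 wild-type libraries these values mirror each other. The experiment was taken as a batch that pairs libraries. The p-values measure the spread between pools of mice. In the model of genotype alone, which does not pair libraries, this spread also holds the difference between the experiments.

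The members, lists and comparisons were chosen with earlier results of these data known. The genes named were the members, Vim, Ptprc, the 3 most abundant of each other list and its called genes, genes within 200 kb of Sele, and the genes closest in profile to Pecam1 and Cdh5 (10) and to Sele (5). Genes named outside this rule (Selplg, Gdf2, Bmp10, Gp9, Gp6, Pf4, Ppbp) were named for low counts after their values were seen. Not every gene the rule covers is printed.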

Additional observations from a re-analysis of the deposited data

How the results depend on the processing

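The count of genes called for knockout against wild type was 11. It was 262 with DESeq2 (163 higher, 99 lower), 217 with the experiment as replicate block (156 higher, 61 lower) and 3 to 15 when a library was left out. The block pairs libraries of the same experiment, and among the members it added a call for Nos3 only. Title numbers do not pair libraries (r = 0.316 for number 1 and -0.286 for number 2), and with them as replicate block 12 genes were called and 0 members. Between experiments 895 genes were called, 1473 with DESeq2 and 38 to 1838 when a library was left out. Without the low-count filter the interaction called 7 genes and with DESeq2 11, against 0, and when a knockout library was left out it called 3 to 371. It could not be fitted without a wild-type library.

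Of 140 alternatives for the members' knockout differences 6 moved by more than the spread between libraries, 5 of them without wild type 1. Eng turned from -0.16 to 0.32 without wild type 1 and was -0.51 without wild type 2. Vcam1 changed sign in 2 alternatives, with a range of -0.27 to 0.58. The experiment difference changed sign only in leave-one-out fits, where it ran from -0.224 to 0.0896 for Sele, from -0.64 to 0.18 for Selp, from -0.85 to 0.0256 for Pecam1, from -0.80 to 0.36 for Cdh5, from -0.40 to 0.48 for Nos3 and from -0.83 to 0.0697 for Aqp1. For Icam2 the interaction ran from -0.45 to 0.37 in such fits. None of these was called in either direction, apart from Pecam1 without knockout 1. Of 135 alternatives for the ratios 25 moved by more than the spread between libraries. Against the whole endothelial list, Cav1 included, the log2 ratio of knockout over wild type was -1.20 for Sele and -1.26 for Selp. It was lower still for Pecam1 (-1.49) and Cdh5 (-1.81), and above 0 for Eng (0.27), Vcam1 (0.62) and Icam1 (0.85). The causes were not tested.

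Limits are the 2 wild-type libraries, of which 1 stood apart in endothelial genes, and the few counts of Icam2 and Nos3. Scaling moved the median of all genes by less than 0.1 on the log2 scale.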
